A study of Mus musculus with 10 samples.

Results

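The connexins of glia and blood vessels were measured in the mouse optic nerve head as the probe sets annotated with exactly 1 of 7 gap junction genes, which gave 13 of the 22690 deposited probe sets and 7 of 12393 named genes. The genes were Gja1, Gjb6, Gjb2, Gjb1, Gjc3, Gja4 and Gja5, chosen by name and not by their values, though with earlier results of these data known. Gja1 had 6 probe sets, Gjb1 had 2 and each other gene had 1. The tissue came from C57Bl/6 males of 6 to 8 weeks. In the high IOP group the right eye had been held at an intraocular pressure of 30 mmHg for 1 h through a cannula placed in its anterior chamber, with tissue taken 3 days later. The control group was the left eye, which was not operated on. Each array carried RNA from a pool of 2 nerve heads, with 5 arrays in either group from 10 mice, so operated right eyes were compared with unoperated left eyes and the pressure cannot be told apart from the cannulation or the side.

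Connexins are membrane proteins that assemble into hexameric channels. Channels of adjacent cells dock to form gap junctions, through which ions, glucose and small messengers pass. Astrocytes of the optic nerve are coupled mainly through the products of Gja1 (Cx43) and Gjb6 (Cx30). Gjb2 (Cx26) is expressed by meningeal cells and by some astrocytes. Gjb1 (Cx32) lies in the myelin of Schwann cells and of oligodendrocytes, and in oligodendrocytes it links their network to that of astrocytes. Gjc3 (Cx29) encodes a connexin of myelinating cells that is not known to form typical junctions. Gja4 (Cx37) and Gja5 (Cx40) couple the endothelial cells of arteries and arterioles.

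The 10 arrays had median signals of 414 to 475 on the linear intensity scale as deposited. High IOP replicate 1 stood apart: its mean correlation with the other arrays was 0.974, against 0.986 to 0.989 for the others, and the 3' Gapdh control divided by the 5' Gapdh control gave 2.07 there, against 1.53 to 1.73 elsewhere. The actin ratio of that array, 2.10, lay within the range of the others, 1.65 to 2.13. Marker genes of the glia and vessels of a nerve head were present: 9 of 10 astrocyte, 9 of 11 oligodendrocyte and 12 of 12 endothelial markers were measured, with mean signals of at least 192, 1731 and 173. Markers of neighbouring tissue were present as well and varied, the photoreceptor score by 7.49-fold over the 10 arrays and the pigment cell score by 4.70-fold. A marker score is the mean over a list of log2(signal + 16) minus the gene's mean over 10 arrays. Of 4 Schwann cell markers only Egr2 was measured, so Schwann cell content was not assessed.

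No connexin passed the test between high IOP and control tissue. With limma on log2(signal + 16), 0 of 13 probe sets had an adjusted p under 0.05, where 0% of all 22626 probe sets had one, and the adjusted p of the 13 lay between 0.837 and 0.969. At an unadjusted p under 0.05 there were also 0 of 13, against 4.44% of all probe sets. The groups overlapped for all 13, while 0.663% of all probe sets had groups that did not overlap. The log2 fold change was negative for 10 of the 13 (median -0.09), of which 5 measure the same Gja1 transcript, and 54.7% of all probe sets were negative (median -0.02). Taking the brightest probe set of each gene, 5 of 7 genes were negative (median -0.09), against 52.7% of all genes (median -0.01).

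**Figure D1:**
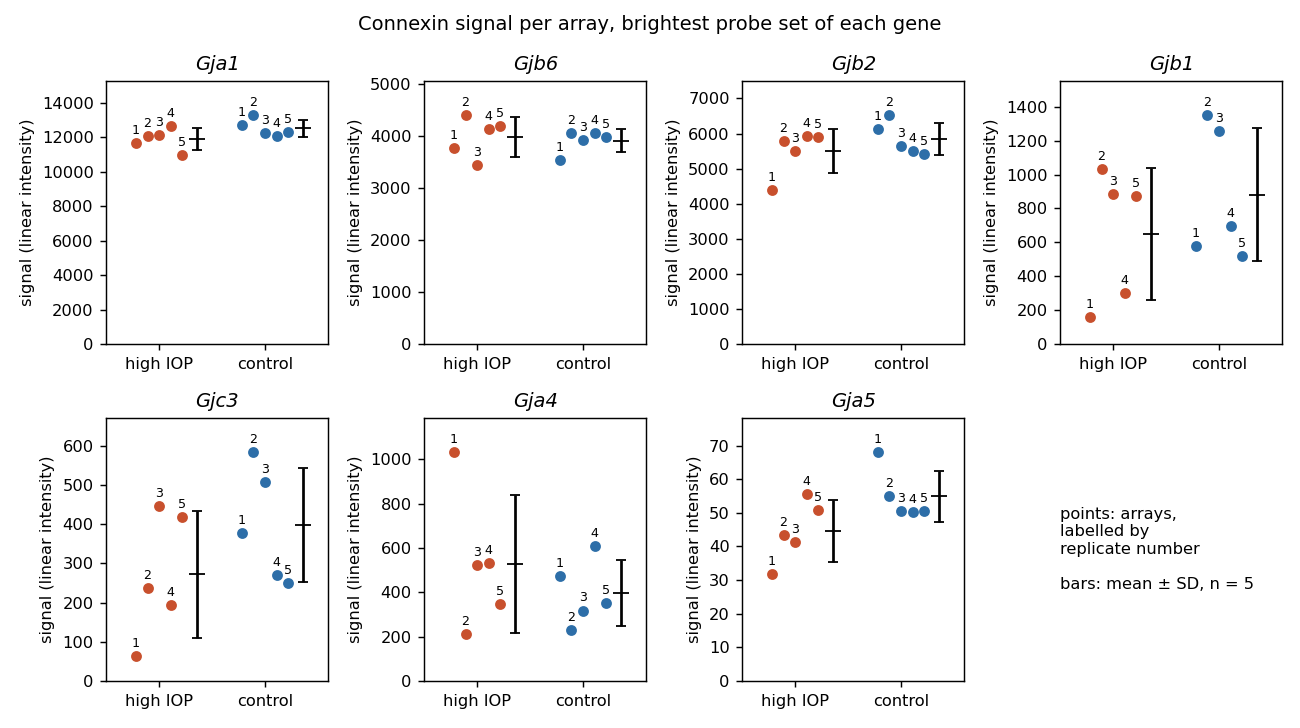
Signal of each connexin (linear intensity) on the 5 high IOP arrays and the 5 control arrays, with the replicate number at each point and mean ± SD beside it, for the brightest probe set of each gene. The groups overlap in every panel, and high IOP replicate 1 is the lowest array for Gjb2, Gjb1, Gjc3 and Gja5 and the highest for Gja4.

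The astrocyte connexins Gja1 and Gjb6 held a narrow range. The brightest probe set of Gja1, 1437992_x_at, read 11667, 12053, 12114, 12652 and 10946 on high IOP arrays 1 to 5 and 12720, 13273, 12253, 12053 and 12296 on control arrays 1 to 5. High IOP arrays 1 and 5 fell below every control array and the other 3 lay within the control range. The mean signal was 11886 ± 632 in high IOP and 12519 ± 487 in control tissue (SD, n = 5 each), a log2 fold change of -0.08 (95% confidence interval -0.23 to 0.08, limma adjusted p = 0.839).

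The other 4 bright probe sets of Gja1 also had negative values. Probe set 1415800_at averaged 11099 ± 1219 in high IOP and 12520 ± 689 in control tissue (SD, n = 5 each), with all 5 high IOP arrays below the control median. Its log2 fold change was -0.18, from -0.39 to 0.03 (limma adjusted p = 0.837), and the two-sided exact permutation p was 0.0635, where the smallest possible value is 0.00794. The probe sets 1438650_x_at, 1438945_x_at and 1438973_x_at had log2 fold changes of -0.09, -0.11 and -0.09. Across these 5 probe sets the pairwise correlations over 10 arrays ran from 0.78 to 0.97, and as probe sets for a single transcript they are not 5 independent observations. Probe sets with the suffix _x_at hold probes that can also bind other transcripts. The highest value of any probe set on any array was 17706, so these signals lay near the top of the scale, and compression of differences at that end was not tested. The sixth probe set, 1415801_at, was dim, with 291 ± 66.9 in high IOP and 280 ± 45.8 in control tissue (SD, n = 5 each). It correlated with the other 5 at only -0.18 to 0.32 and had a log2 fold change of 0.04 that changed sign when single arrays were left out.

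Gjb6 read 3767, 4399, 3445, 4133 and 4186 on high IOP arrays 1 to 5 and 3533, 4067, 3920, 4065 and 3990 on control arrays 1 to 5. High IOP arrays lay on both sides of the control range, with 3 above all controls and 1 below. Its log2 fold change was 0.02, from -0.17 to 0.22 (limma adjusted p = 0.966). Gjb2 read 4399, 5787, 5506, 5924 and 5890 on high IOP arrays 1 to 5 and 6133, 6518, 5644, 5509 and 5430 on control arrays 1 to 5. Array 1 of the high IOP group was the lowest and the other 4 lay within the control range. The log2 fold change of Gjb2 was -0.09, from -0.32 to 0.13 (limma adjusted p = 0.848), and -0.01 without high IOP replicate 1. The confidence interval stayed inside a 2-fold change either way for all 6 Gja1 probe sets, Gjb6, Gjb2 and Gja5, which is 9 of the 13 connexin probe sets, against 95.6% of all probe sets.

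**Figure D2:**
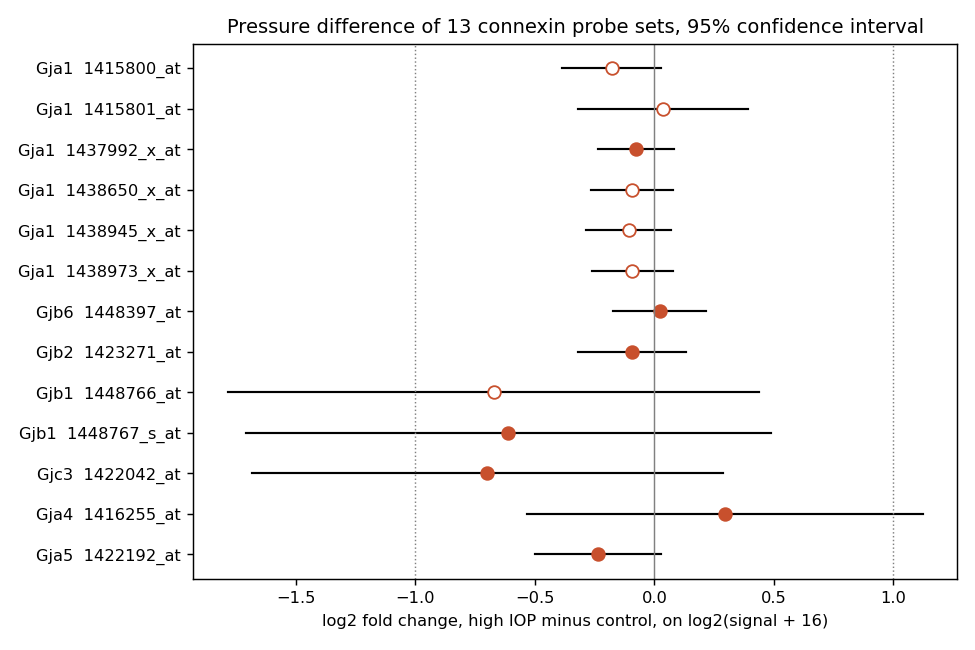
Log2 fold change, high IOP minus control, on the log2(signal + 16) scale for the 13 connexin probe sets, with 95% confidence intervals from limma (filled points: brightest probe set of a gene; dotted lines: 2-fold). Intervals of Gjb1, Gjc3 and Gja4 reach past 2-fold in 1 direction, and all 13 intervals include 0.

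The connexins of myelinating cells, Gjb1 and Gjc3, varied most over the arrays. Their upstream sequences are shown because these genes moved together across the pools (r = 0.89). That was not particular to this pair: Gja5 with Gjb2 had r = 0.82 and Gjb2 with Gjc3 had 0.80. The sequences are the 250 bases before a transcription start from RefSeq (build GRCm38.p6). They were searched on both strands for ACAAAG and ACAAT, core letters bound by SOX proteins, of which SOX10 is the factor of myelinating glia. For Gjb1 the table lists 4 start sites, and the fourth is shown, picked because it holds both motifs close together. It lies at chrX:101383482-101383731 on the + strand. The sequence of Gjc3 lies at chr5:137963099-137963348 on the - strand. Capitals mark the motif letters, and ATTGT is ACAAT on the other strand.
Gjb1: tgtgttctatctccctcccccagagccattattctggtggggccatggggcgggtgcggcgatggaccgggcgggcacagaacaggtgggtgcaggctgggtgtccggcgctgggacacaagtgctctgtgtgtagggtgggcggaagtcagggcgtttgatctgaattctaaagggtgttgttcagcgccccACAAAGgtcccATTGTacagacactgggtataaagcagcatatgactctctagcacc
Gjc3: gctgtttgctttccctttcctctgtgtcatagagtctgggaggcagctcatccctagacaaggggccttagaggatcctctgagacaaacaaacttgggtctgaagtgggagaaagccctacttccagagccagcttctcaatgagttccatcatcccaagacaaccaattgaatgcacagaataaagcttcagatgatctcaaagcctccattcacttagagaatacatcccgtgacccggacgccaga
In Gjb1 the ACAAAG match begins 57 bases and the ACAAT match 46 bases before the start, and the matches do not overlap. Gjc3 has neither in this window. Of the other Gjb1 windows the first holds both motifs, the second ACAAT only and the third neither. Among the other connexins the Gja4 window holds ACAAT and the Gja5 window ACAAAG, while those of Gja1, Gjb6 and Gjb2 hold neither. Of 32851 mouse windows of this length 16.5% hold ACAAAG, 27.7% hold ACAAT and 38.8% hold either, a share for single windows that does not apply to a window picked from 4. A match is common and is only a description.

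Gjb1 (probe set 1448767_s_at) read 162, 1034, 884, 303 and 872 on high IOP arrays 1 to 5 and 578, 1349, 1255, 697 and 521 on control arrays 1 to 5. High IOP arrays 1 and 4 were below every control array, the other 3 were within the control range, and control arrays 2 and 3 were the highest. The mean was 651 ± 391 in high IOP and 880 ± 392 in control tissue (SD, n = 5 each). The log2 fold change was -0.61, from -1.71 to 0.49 (limma adjusted p = 0.837), a range that holds a decrease of more than 2-fold and a small increase. The second probe set, 1448766_at, stood at -0.67 and correlated with the first at 0.99 over the 10 arrays.

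Gjc3 read 62.7, 236, 447, 192 and 419 on high IOP arrays 1 to 5 and 377, 584, 508, 269 and 251 on control arrays 1 to 5. Arrays 1, 2 and 4 of the high IOP group were below every control array and arrays 3 and 5 were within the control range. The mean was 272 ± 161 in high IOP and 398 ± 146 in control tissue (SD, n = 5 each), a log2 fold change of -0.70 from -1.68 to 0.29 (limma adjusted p = 0.837, exact permutation p = 0.206). Both genes depended most on 1 array. Without high IOP replicate 1 the log2 fold change was -0.21 for Gjb1 (1448767_s_at) and -0.29 for Gjc3. With any other single array left out it ran from -0.85 to -0.42 for Gjb1 and from -0.93 to -0.55 for Gjc3. With the Gapdh 3' to 5' ratio as a covariate it was 0.20 for Gjb1 and 0.019 for Gjc3. That ratio is highest in high IOP replicate 1 (2.07) and next in high IOP replicate 4 (1.73), so the adjustments overlap.

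Over the 10 arrays Gjb1 spanned 7.67-fold and Gjc3 7.62-fold on signal + 16, more than 99.3% of all probe sets, whose median span was 1.65-fold. These spans rest in part on high IOP replicate 1, the lowest array for both genes (162 and 62.7). The next lowest was high IOP replicate 4 (303 and 192), and spans without replicate 1 were not computed. Gja1, Gjb6 and Gjb2 spanned 1.21-fold, 1.28-fold and 1.48-fold, less than 94.1%, 88.8% and 67.4% of probe sets.

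**Figure D3:**
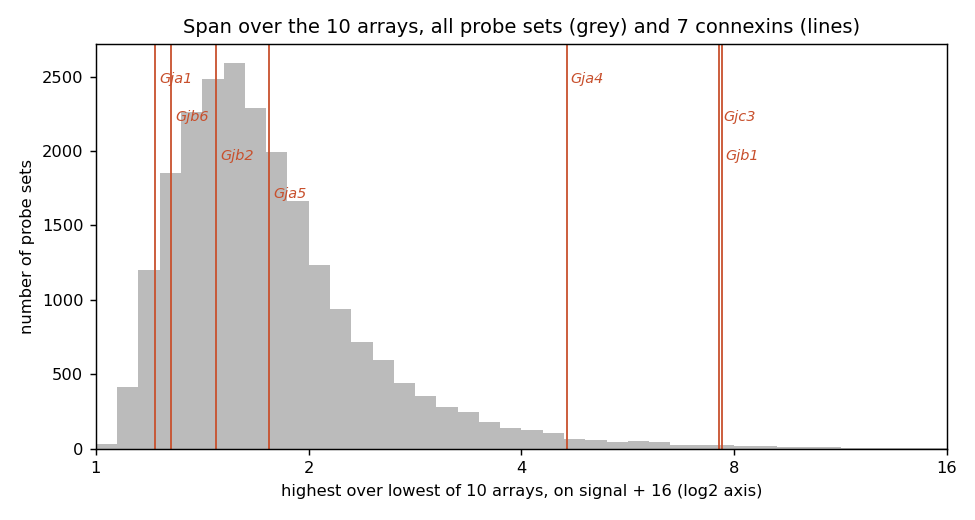
Span of each probe set over the 10 arrays, the highest over the lowest value of signal + 16 on a log2 axis, as a histogram of all 22626 probe sets (grey, with 35 probe sets of 16-fold or more beyond the axis) and as lines for the brightest probe set of each connexin. The lines of Gjb1 and Gjc3 nearly coincide far to the right, Gja4 stands at 4.63-fold, and the other 4 lie between 1.21-fold and 1.76-fold. High IOP replicate 1 is the lowest array for Gjb1 and Gjc3 and the highest for Gja4.

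Gjb1 followed the oligodendrocyte markers from pool to pool. The oligodendrocyte score was -0.87, 0.21, 0.08, -0.16 and 0.06 on high IOP arrays 1 to 5 and -0.07, 0.40, 0.41, 0.12 and -0.18 on control arrays 1 to 5. The summed signal of its 9 measured markers ran from 42801 to 66910 in high IOP and from 54650 to 73639 in control pools, and no marker averaged near 0. Gjb1 correlated with this score at Pearson r = 0.95 and Spearman rho = 0.94 (permutation p adjusted over 9 relations 0.00018 and 0.00162). Without the 2 arrays farthest from the median score r was 0.90 (exact permutation, adjusted p = 0.0279), and with group means removed it was 0.95 (adjusted permutation p = 0.00243). With the score as a covariate the log2 fold change of Gjb1 was 0.04 on 1448767_s_at and -0.02 on 1448766_at. In these bulk pools fewer oligodendrocytes and less RNA per oligodendrocyte cannot be told apart, nor can either be told apart from array quality. High IOP arrays 1 and 4, the lowest for Gjb1, had the highest Gapdh 3' to 5' ratios (2.07 and 1.73).

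Gjc3 had r = 0.89 and rho = 0.71 with the same score (adjusted permutation p 0.0081 and 0.0795), and r = 0.87 with group means removed (adjusted permutation p = 0.0054). That relation rested on high IOP replicate 1: without that array r was 0.66 (exact permutation, adjusted p = 0.127), and without the 2 farthest arrays it was 0.59 (exact permutation, adjusted p = 0.376). Gjb1 and Gjc3 correlated with each other at r = 0.89 and rho = 0.81 (adjusted permutation p 0.00499 and 0.0336), and at 0.75 without high IOP replicate 1 (exact permutation, adjusted p = 0.0574) and 0.68 without the 2 farthest arrays (exact permutation, adjusted p = 0.272). With the score as a covariate the log2 fold change of Gjc3 was -0.16. Both sides of each correlation come from the same arrays, whose scaling is not given.

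**Figure D4:**
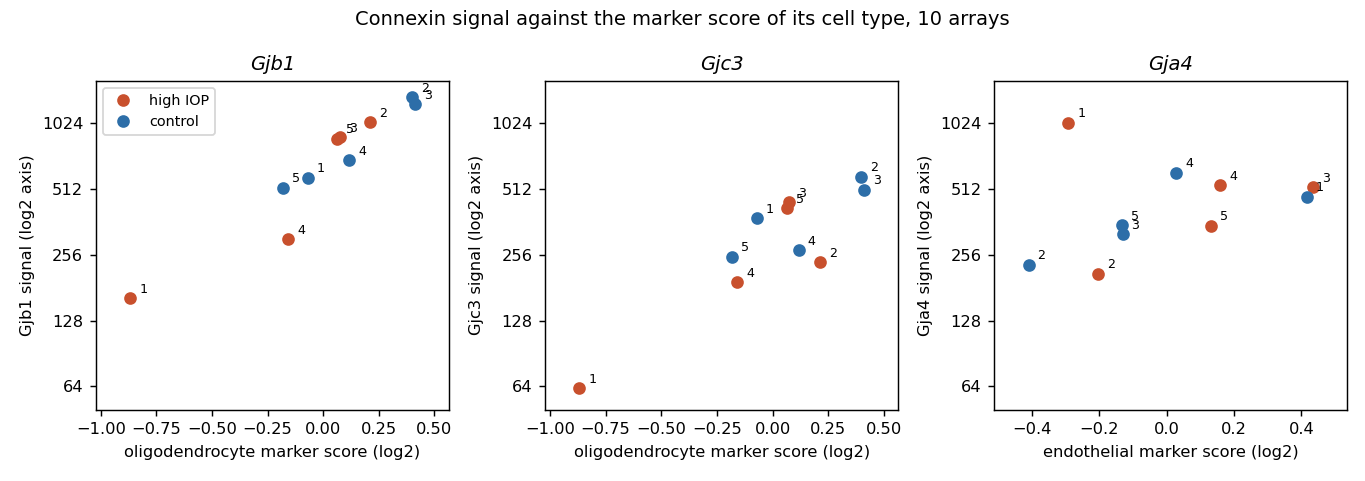
Signal of Gjb1, Gjc3 and Gja4 (log2 axis) against the marker score of the cell type each is assigned to (log2 units), with 5 high IOP and 5 control arrays labelled by replicate number. Gjb1 rises along the oligodendrocyte score in both groups, the Gjc3 relation leans on high IOP replicate 1 at a score of -0.87, and for Gja4 that same array has the highest signal, 1032, at an endothelial score of -0.29. On that array 7 of 12 endothelial markers were below their mean over 10 arrays and 5 above.

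With all 10 arrays, relations with the astrocyte and fibroblast scores did not pass the test. Gja1 and Gjb6 correlated with the astrocyte score at r = 0.44 and 0.26 (rho = 0.32 and 0.37), and with each other at -0.15 (rho = -0.16). The lowest adjusted permutation p among these was 0.379. With single arrays left out the astrocyte r ran from 0.26 (without control replicate 2) to 0.65 (without high IOP replicate 5) for Gja1, and from 0.12 (without high IOP replicate 3) to 0.47 (without high IOP replicate 2) for Gjb6. Under quantile normalization it was 0.059 for Gja1. Gjb2 had r = 0.50 and rho = 0.24 with the fibroblast score, whose list holds matrix genes of connective tissue such as that of the meninges (adjusted permutation p 0.324 and 0.578). The r was -0.0076 without high IOP replicate 1 and -0.39 without the 2 farthest arrays, but 0.77 without control replicate 2, where it passed (exact permutation, adjusted p = 0.0380). Over the 10 arrays the astrocyte score itself ran from -0.12 to 0.15 and the fibroblast score from -0.17 to 0.18.

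Of the vascular connexins, Gja4 differed widely between pools of the same group. It read 1032, 210, 524, 532 and 348 on high IOP arrays 1 to 5 and 472, 230, 318, 610 and 350 on control arrays 1 to 5. Array 1 of the high IOP group was above every control array, array 2 below every one, and the other 3 were within the control range. The mean was 529 ± 311 in high IOP and 396 ± 148 in control tissue (SD, n = 5 each), a log2 fold change of 0.30 from -0.53 to 1.12 (limma adjusted p = 0.864). It was 0.015 without high IOP replicate 1, 0.57 without high IOP replicate 2, 0.13 without control replicate 2, 0.47 without control replicate 4, and -0.21 with the Gapdh ratio as a covariate.

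Gja4 had r = 0.28 and rho = 0.33 with the endothelial score (adjusted permutation p 0.523 and 0.552), and its r ran from 0.081 without control replicate 2 to 0.76 without high IOP replicate 1 (exact permutation, adjusted p 0.832 and 0.0574). The endothelial score was -0.29, -0.20, 0.44, 0.16 and 0.13 on high IOP arrays 1 to 5 and 0.42, -0.41, -0.13, 0.03 and -0.13 on control arrays 1 to 5. On high IOP replicate 1 this list split, with 7 of 12 markers below their mean over 10 arrays and 5 above (Cldn5, Tie1, Vwf, Eng and Robo4). The gene most like Gja4 over the 10 arrays was instead Myh11, the smooth muscle myosin heavy chain, a member of the mural cell list, with r = 0.96. Myh11 read 1050, 194, 627, 712 and 346 on high IOP arrays 1 to 5 and 563, 267, 423, 845 and 491 on control arrays 1 to 5, so high IOP arrays 1 and 2 were the highest and the lowest for both genes. The mural list as a whole shared this order only in part. On high IOP replicate 1 only 4 of its 9 markers were above their mean over 10 arrays, and 5 were below (Acta2, Tagln, Pdgfrb, Rgs5 and Notch3). The mural score was 0.27, -0.40, 0.24, 0.06 and 0.02 on high IOP arrays 1 to 5. On control arrays 1 to 5 it was 0.28, -0.56, -0.05, 0.20 and -0.06. Its extremes were control arrays 1 and 2, with high IOP array 1 next to the highest and high IOP array 2 next to the lowest. A relation of Gja4 with the mural score was not tested. The 9 mural markers summed to between 24879 and 29326 in high IOP and between 21307 and 33347 in control pools.

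Gja5 was dim throughout, and no detection call was used, so whether it lay above background is unknown. It read 31.8, 43.5, 41.2, 55.6 and 50.8 on high IOP arrays 1 to 5 and 68.1, 55.0, 50.7, 50.3 and 50.7 on control arrays 1 to 5. High IOP arrays 1, 2 and 3 were below every control array, and arrays 4 and 5 were within the control range. The log2 fold change was -0.24, from -0.50 to 0.03 (limma adjusted p = 0.837, exact permutation p = 0.111), which understates a change at signals this close to the 16 added, and it was -0.31 with 1 added. Without high IOP replicate 1 it was -0.15. Gja5 had r = 0.35 and rho = 0.25 with the endothelial score (adjusted permutation p 0.485 and 0.578). That r ran from 0.067 without control replicate 1 to 0.63 without high IOP replicate 3, and was 0.14 under quantile normalization and 0.55 with group means removed. None of these passed the test. The arterial endothelial score differed between high IOP and control by -0.11 (exact permutation p = 0.421).

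**Figure D5:**
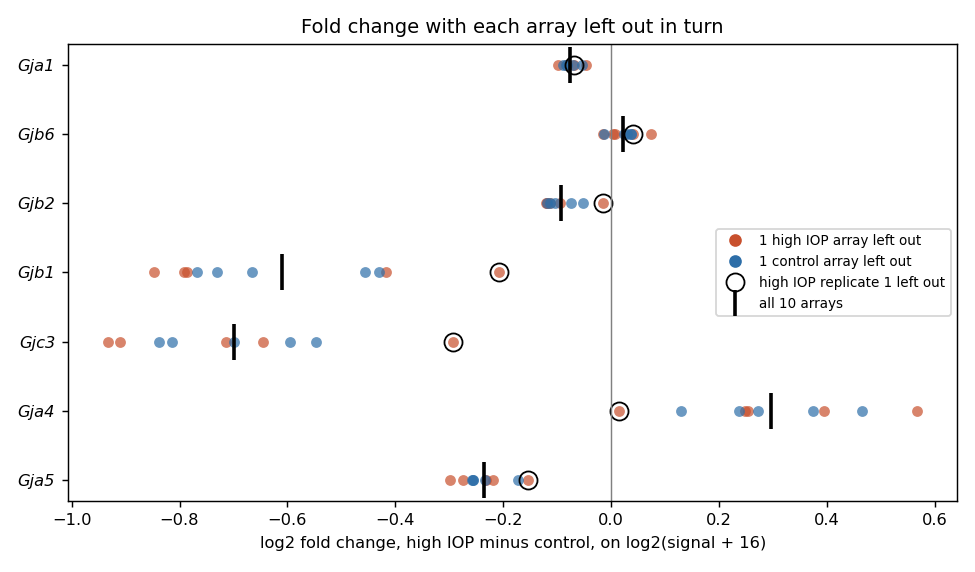
Log2 fold change, high IOP minus control, on the log2(signal + 16) scale for the brightest probe set of each connexin with each array left out in turn (orange: a high IOP array; blue: a control array; bar: all 10 arrays; ring: high IOP replicate 1 left out). Leaving out that array moves Gjb1, Gjc3 and Gja4 the farthest towards 0.

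Genes most like each connexin over the 10 arrays, by Pearson r among 12386 other genes, were found as a description. For Gjb1 they were Adamts4, a secreted protease (0.99), Pex5l, a channel-associated protein (0.99), and Olig1, a transcription factor of the oligodendrocyte lineage (0.98). For Gjc3 they were the catenin gene Ctnnd2 (0.97), the neuregulin receptor gene Erbb3 (0.96) and Cfap298 (0.96). Gja4 was followed, after Myh11, by the potassium channel gene Kcnj8 (0.96) and Gatad2b (0.94). Gja1 was most like Zic5 (0.94), Dnah5 (0.93) and Knop1 (0.93), Gjb6 like Zdhhc16 (0.89), Sphk1 (0.89) and Pars2 (0.89), Gjb2 like Cep85 (0.96), Samd10 (0.95) and Tmed4 (0.95), and Gja5 like Arhgap1 (0.95), Armc1 (0.95) and Set (0.93). Values this high are picked from many genes over 10 arrays. They were not computed without high IOP replicate 1, the lowest array for Gjb2, Gjb1, Gjc3 and Gja5 and the highest for Gja4.

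Other gap junction genes did not pass the test either. Of 13 other connexins 6 were measured, 4 with a positive and 2 with a negative log2 fold change (median 0.03), against 52.7% negative among all genes. Several of these were dim, with group means down to 8.62, below the 16 added. Without a detection call, whether the dim ones lay above background is unknown. A limma adjusted p under 0.05 was found for 0 of the 6, against 0% of all genes. Gjc1, a connexin of smooth muscle and neurons, averaged 1455 ± 218 in high IOP and 1426 ± 92.3 in control tissue (SD, n = 5 each), a log2 fold change of 0.02. The neuronal connexin gene Gjd2 stood at 0.12, at low mean signals of 76.1 in high IOP and 68.6 in control tissue. Gjb5, a connexin of epithelia, stood at -0.27, with an interval from -1.04 to 0.49. Panx1 encodes a channel of the related pannexin family that releases ATP, and it was the only one of 3 pannexin genes measured. It read 813, 648, 511.8, 484 and 541 on high IOP arrays 1 to 5 and 498, 365, 498, 348 and 555 on control arrays 1 to 5. Its high IOP arrays 1 and 2 were above every control array and the other 3 overlapped them. The log2 fold change was 0.39, from 0.01 to 0.77, with an unadjusted p of 0.0436, where 3.82% of all genes had one under 0.05, and 2.52% had one and were higher in high IOP (limma adjusted p = 0.837, exact permutation p = 0.0952).

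Of 18 genes for scaffolds, trafficking and kinases of gap junctions 14 were measured. Of these 5 were positive and 9 negative (median -0.03), against 52.7% negative among all genes. An unadjusted limma p under 0.05 was found for 0 of the 14, against 3.82% of all genes. Tjp1, the tight junction scaffold that binds the end of the Gja1 protein, had a log2 fold change of -0.10, the caveolin gene Cav1 -0.18, and Sgsm3 0.29. The kinase gene Csnk1d stood at 0.00 and the adhesion gene Ctnnb1 at -0.05, but other probe sets of both had values down to -0.55 and -0.50.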

How the data were processed

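Total RNA from pooled optic nerve heads was amplified, biotin-labelled and hybridised to 1 array per pool, per the labels' protocols. The authors deposited linear intensity values for 22690 probe sets, 64 of them controls. Neither their summarisation nor their scaling is given in the sources used here. Precision is limited by how many arrays there are. Genes were named from the platform annotation, which gave 20380 of the other 22626 probe sets 1 symbol, 691 several and 1555 none. Upstream sequences came from a RefSeq table (GRCm38.p6).

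Intensities were analysed as log2(signal + 16), without a filter. High IOP and control arrays were tested in limma 3.58.1 (R 4.3.3) by lmFit and eBayes over all 22626 probe sets with Benjamini-Hochberg adjustment and no covariates. This main test took the pools as unpaired and independent, although the right and left eyes came from 10 mice. Fold changes on this scale understate changes of dim genes. The test was checked on simulated data. The 9 relations, of connexins with marker scores or with each other, used 100000 resamples, or all orders for fewer than 10 arrays, two-sided. Tables were prepared with Python 3.11.15 (NumPy 2.4.6, pandas 2.3.3, Matplotlib 3.10.9). The labels call the pools biological replicates. Named were all member probe sets, the 3 brightest genes and the 2 with the smallest p of each other list (all genes of a list of 5 or fewer), and the 3 genes most like each member. Myh11 values were given because of that rule. The members and lists were chosen with earlier results of these data known. Alternatives were other scalings, a pseudocount of 1, leaving out the dimmest 25%, 1 probe set per gene, a trended robust variance, the replicate block, the Gapdh ratio or a marker score as covariate, and each array left out.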

Additional observations from a re-analysis of the deposited data

Results flagged for a closer look

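Within groups of 5 arrays, the highest or lowest array was set against the range of its group for the 13 connexin probe sets and 11 marker scores. In 5 of 48 such groups 1 array stood off by more of the range than Dixon's 95% limit allows, where chance gives about 1 in 20, or 2.4. High IOP replicate 1 was the lowest for Gjb2, with a gap of 0.754 of the group's range, and for the fibroblast score, with 0.795. Control replicate 1 was the lowest of its group for Gjb6 (0.738). Control replicate 3 was the highest for the microglia score (0.717) and control replicate 5 for the lens score (0.752).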

How the results depend on the processing

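No connexin probe set reached a limma adjusted p under 0.05 under any alternative run, and Gja5 has no value without the dimmest 25%, which left it out. Under quantile normalization, equal array medians and a pseudocount of 1 all 13 kept their direction. The filter, the trended robust variance and the replicate block leave a fold change as it is and bear only on its p. With the Gapdh ratio as a covariate the log2 fold change turned to 0.11 and 0.20 for the 2 Gjb1 probe sets (1448766_at and 1448767_s_at), 0.019 for Gjc3, 0.031 for Gjb2, -0.21 for Gja4 and -0.14 for Gja1 1415801_at, and with the oligodendrocyte score Gjb1 1448767_s_at turned to 0.041. The cause was not tested. With single arrays left out, Gja1 1415801_at ran from -0.051 to 0.14 (-0.051, -0.0029 and -0.0056 without high IOP replicate 1, 3 or 4, and -0.018 without control replicate 1) and Gjb6 from -0.014 to 0.074 (-0.014 without high IOP replicate 2 or control replicate 1), so both changed sign. Gjb1 1448767_s_at ran from -0.85 to -0.21, Gjb1 1448766_at from -0.91 to -0.30, Gjc3 from -0.93 to -0.29, Gja4 from 0.015 to 0.57 and Gja5 from -0.30 to -0.15.

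Connexin probe sets at an unadjusted p under 0.05 numbered 0 with all arrays, and 1 with the trended robust variance (Gja1 1415800_at), with a marker score as covariate (Gja5) and over the arrays left out 0 to 1 (Gja5 without high IOP replicate 4). Over all probe sets that count was 1004, and 495 with 1 probe set per gene, where fewer were tested, 612 with the Gapdh ratio, and 739 to 2017 with an array left out, the highest without high IOP replicate 3. Negative values numbered 10 of 13, and 5 of 7 with 1 probe set per gene, where fewer were tested. They numbered 8 with the Gapdh ratio, 9 with a marker score as covariate, and 10 to 12 with an array left out. Without the dimmest 25%, which left out Gja5, there were 9. Gjb2 against the fibroblast score had r from -0.0076 without high IOP replicate 1 to 0.77 without control replicate 2 (adjusted exact permutation p = 0.0380 for 0.77), and -0.39 without the 2 farthest arrays, and Gja1 against Gjb6 had -0.29 to 0.078, the highest without high IOP replicate 5. Gjb1 against the oligodendrocyte score kept an adjusted p under 0.05 in every setting run (r from 0.91 to 0.99 over the arrays left out). The sources used here do not say whether same-numbered pools came from the same mice. Same-numbered deviations correlated at -0.08 to 0.18, which cannot decide it, and the same-numbered control was the closest for replicates 2 and 4 only. The replicate block gave 0 called probe sets, 886 at an unadjusted p under 0.05, and -0.61 for Gjb1 1448767_s_at (limma adjusted p = 0.880). With the block the unadjusted limma p fell from 0.247 to 0.0944 for Gjb1 1448767_s_at and rose from 0.0763 to 0.152 for Gja5.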
